A study of Mus musculus with 24 samples.

Results

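γδ T cells of epididymal adipose tissue were compared by whether they carried the reporter of PLZF, and the comparison rests on 6 of the 24 libraries of the series. Members were taken from the labels: 3 PLZF+ adipose libraries and 3 PLZF- adipose libraries. All came from male C57Bl/6 mice of the PLZF-GFP reporter strain, aged 16 to 22 weeks, with no treatment. The same genotype supplied both groups, so the PLZF- cells are reporter-negative cells of reporter mice and not cells of a knockout. Cells were sorted by flow cytometry into lysis buffer in a plate, and cDNA was made with Smart-seq2, a method for very small amounts of RNA that does not mark the strand. The study sorted the same subsets from spleen, inguinal lymph node and lung, 18 further libraries that enter the fit. Its design text speaks of 2 replicates per sorted population, every one a pool of 10 mice, while 3 libraries per group are labelled. Nothing tells whether the 3 libraries hold separate pools, so p-values measure the spread between these libraries, which may be technical.

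γδ T cells carry a T cell receptor made of a γ and a δ chain, held at the surface and wired to the cell's interior by the CD3 proteins. PLZF, encoded by Zbtb16, is the transcription factor that gives innate-like lymphocytes their ready effector behaviour. In mouse adipose tissue, resident γδ T cells are known as a source of IL-17A and take part in thermogenesis and in the upkeep of regulatory T cells.

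The defining genes of the sort, Zbtb16 and Trdc, were not analysed here, so the labels could not be checked on the reporter's own gene. T cell identity was checked on the CD3 genes. Cd3e stood at 651, 454 and 384 normalized reads in PLZF+ libraries 1 to 3 and at 273, 212 and 73.5 in PLZF- libraries 1 to 3, where a normalized read is a read divided by the library's relative depth. Reads were therefore present in every library, and the 3 PLZF- libraries lay below the 3 PLZF+ libraries. Constant segments of the γ chain were also read in all 6: Tcrg-C4 stood at 238, 202 and 131 in PLZF+ libraries and at 84.5, 107 and 51.2 in PLZF- libraries. The αβ T cell genes of the marker list were read as well, since Trac stood at 52.5, 40.3 and 7.57 in PLZF+ and at 39.0, 10.1 and 10.5 in PLZF- libraries.

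The libraries were not pure T cell RNA, and their endothelial and adipocyte reads followed the replicate number. Libraries carried 198166 to 247552 reads in PLZF+ and 337929 to 779765 in PLZF- adipose samples, counted over the genes of the deposited table. The 17 endothelial marker genes of the table took 0.167% and 0.0421% of reads in PLZF+ and PLZF- library 1, but 3.50% to 5.03% in PLZF+ and 5.05% to 6.65% in PLZF- libraries 2 and 3. Adipocyte markers (7 genes) behaved alike, with 0.0309% and 0.0168% in library 1 and 0.595% to 1.03% in libraries 2 and 3. Dendritic cell markers (3 genes) ran the other way, with 2.33% and 2.14% in library 1 and 0.301% to 0.711% in libraries 2 and 3. Macrophage and monocyte markers (15 genes) took 2.03%, 0.525% and 1.22% of PLZF+ and 1.29%, 1.09% and 1.01% of PLZF- reads. The 75 markers of non-lymphoid, B and blood cells together took 4.87%, 6.61% and 9.92% of PLZF+ reads and 3.73%, 9.27% and 12.4% of PLZF- reads. Library 1 of both groups thus stands apart from libraries 2 and 3 in endothelial and adipocyte reads, and values without it are given where they end a call or move a difference by over 1.5 times.

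**Figure D1:**
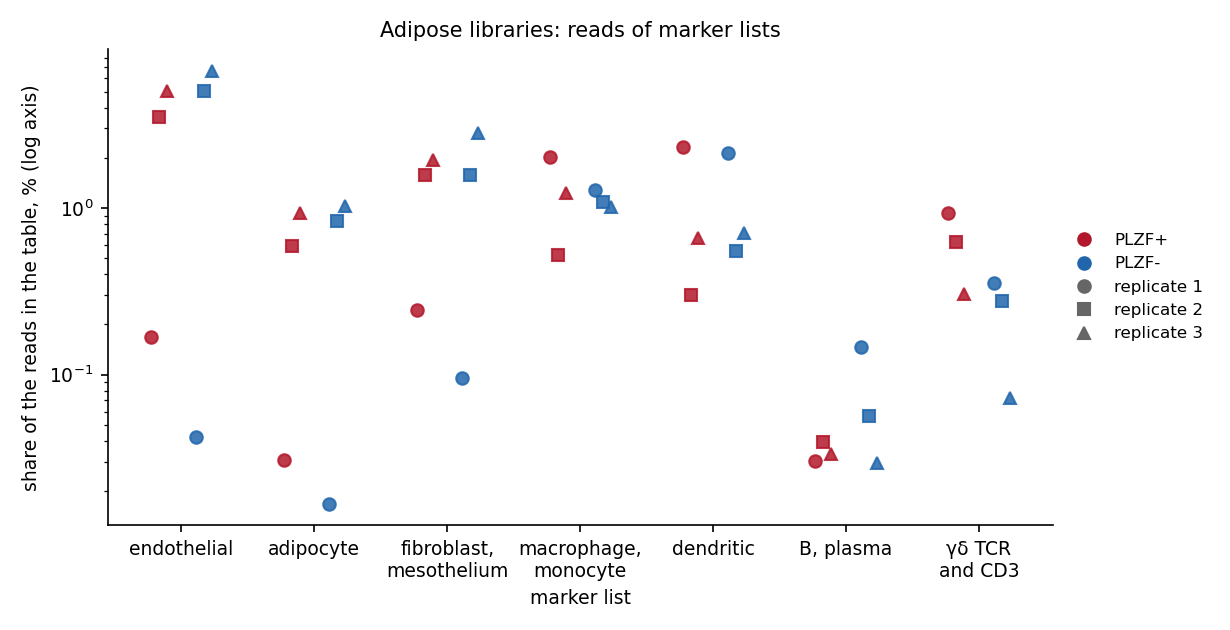
Share of the reads in the table, in percent on a log axis, taken by 6 marker lists of other cells and by the 7 γδ T cell receptor and CD3 genes of the table. Each point is 1 adipose library, coloured by subset and shaped by replicate number; endothelial, adipocyte and fibroblast shares are lowest in replicate 1 of both subsets, and CD3 and receptor shares run from 0.305% to 0.934% in PLZF+ and from 0.0727% to 0.354% in PLZF- libraries.

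Sequences of the region around the gene start are shown for the genes that the comparison turns on and that the RefSeq promoter table holds (4 of 7 looked up, build GRCm38.p6): Slamf6 and Ypel1, which were lower in PLZF+ cells, and Cd3e and Cd247, parts of the CD3 complex with more reads in PLZF+ libraries. Each run has 300 bases, from 250 before to 50 after the start, 5′ to 3′ on the gene's strand, and capitals mark matches on either strand to 4 lymphocyte motifs, TGTGGT (RUNX), CAGGTG (E-box), CCGGAA (ETS) and CTTTGA (TCF/LEF).
Slamf6, chr1:171917212-171917511, plus strand: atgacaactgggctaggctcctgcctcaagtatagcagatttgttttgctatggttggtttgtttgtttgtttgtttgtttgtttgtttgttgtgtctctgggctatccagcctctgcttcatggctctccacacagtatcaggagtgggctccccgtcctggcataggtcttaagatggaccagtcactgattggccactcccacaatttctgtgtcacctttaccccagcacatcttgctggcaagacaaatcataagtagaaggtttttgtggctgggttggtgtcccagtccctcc
Ypel1, chr16:17069889-17070188, plus strand: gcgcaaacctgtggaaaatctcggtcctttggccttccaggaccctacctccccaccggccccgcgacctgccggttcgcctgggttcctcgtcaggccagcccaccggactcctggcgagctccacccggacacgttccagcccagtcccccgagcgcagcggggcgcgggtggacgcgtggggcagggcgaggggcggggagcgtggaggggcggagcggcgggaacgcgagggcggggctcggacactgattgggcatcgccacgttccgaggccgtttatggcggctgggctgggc
Cd3e, chr9:45009562-45009861, minus strand: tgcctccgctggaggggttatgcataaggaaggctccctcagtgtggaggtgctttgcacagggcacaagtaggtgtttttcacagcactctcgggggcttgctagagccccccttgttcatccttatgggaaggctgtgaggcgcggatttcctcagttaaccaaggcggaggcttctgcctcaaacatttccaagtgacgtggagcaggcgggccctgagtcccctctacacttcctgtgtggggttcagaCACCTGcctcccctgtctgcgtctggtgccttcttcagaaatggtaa
Cd247, chr1:165788431-165788730, plus strand: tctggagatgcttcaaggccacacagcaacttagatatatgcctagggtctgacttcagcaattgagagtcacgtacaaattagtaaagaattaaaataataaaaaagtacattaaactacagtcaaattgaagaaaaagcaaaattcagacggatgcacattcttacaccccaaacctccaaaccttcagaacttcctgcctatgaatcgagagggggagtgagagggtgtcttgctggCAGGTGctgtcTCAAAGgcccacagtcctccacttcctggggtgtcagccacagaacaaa
The windows of Cd3e and Cd247 each hold 1 E-box match within a few bases of the start, at bases 254 to 259 and 241 to 246 of the window, and Cd247 also holds a TCF/LEF match at bases 252 to 257. Of all 32851 promoter windows 20.2% hold the E-box letters, 16.8% the RUNX, 16.0% the TCF/LEF and 14.9% the ETS letters, and no 2 matches overlap in the windows shown. Slamf6 and Ypel1 hold none of the 4, which says only that these letters are not in these windows. G and C make up 72.7% of the Ypel1 window and 48.3% of the Slamf6 window, against a median of 52.7% over all windows.

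PLZF+ cells of adipose tissue had fewer reads of Sh2d1a, Cd7, Slamf6 and Ypel1 than PLZF- cells and more of Gm44141. These 5 of 5007 genes tested (0.0999%) passed limma's moderated test at a Benjamini-Hochberg adjusted p under 0.05, 4 lower (0.0799%) and 1 higher (0.02%) in PLZF+ cells. Of the 4 that fell, Sh2d1a and Slamf6 belong to 1 signalling system, in which the adaptor SAP (Sh2d1a) docks on SLAM-family receptors such as Ly108 (Slamf6), and Cd7 is a surface protein of T and NK cells. At an unadjusted p under 0.05 there were 157 genes higher (3.14%) and 82 lower (1.64%) in PLZF+ cells. The deposited scale tilts this split, as set out after the gene groups: among the 2757 genes with a mean of at least 10 reads over the 6 libraries it was 54 higher (1.96%) and 57 lower (2.07%). With libraries weighted by their spread 51 genes passed (1.02%), 33 higher and 18 lower, the 5 among them, while a fit of the 6 adipose libraries alone called 0 (109 at an unadjusted p under 0.05 in limma).

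Sh2d1a (chrX:42502453-42529330, plus strand, GRCm38 with GENCODE vM21 bounds, as for the genes that follow) had 0 reads in all 3 PLZF+ libraries. The PLZF- libraries held 238, 21 and 5 reads, or 112, 23.7 and 6.56 normalized reads. No PLZF+ library reached the lowest PLZF- library, and the log2 difference was -4.98 ± 0.76 (SE of the fit, adjusted p = 0.00921). With a floor of 3 reads per PLZF+ library, the mean was at least 8.88-fold lower. With PLZF- library 1 left out of the PLZF- mean, and the floor still taken over all 3 PLZF+ libraries, the bound was 2.84-fold. In PLZF+ library 3 the floor of 3 reads is 7.57 normalized reads, above the 6.56 of PLZF- library 3. The separation of these libraries was therefore not resolved. Most reads lay in PLZF- library 1. The call held with each of the 24 libraries left out in turn (adjusted p = 0.000401 to 0.0436), and with the pairing by replicate number as a block within tissue (0.0298). It ended without library 1 of both groups, where the difference was -3.77 (adjusted p = 0.0861), without library 2 of both groups, with 4 added to normalized reads, and by voom on genes with a mean of at least 10 adipose reads.

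Cd7 (chr11:121036747-121039418, minus strand) was read 10, 2 and 1 times in the PLZF+ and 501, 48 and 38 times in the PLZF- libraries. As normalized reads these were 13.1, 2.99 and 2.52 against 235, 54.1 and 49.8, so every PLZF- library lay above every PLZF+ library. Its log2 difference was -3.90 ± 0.66 (adjusted p = 0.0207), and each pair of equal number gave nearly the same value, -4.09, -3.87 and -3.74. The block by replicate number left the call in place (adjusted p = 0.00376), as did leaving out library 1 of both groups (-3.81, adjusted p = 0.0270). It ended without PLZF+ library 2 or 3 (adjusted p = 0.115 to 0.167), without library 2 or library 3 of both groups, under voom (0.508, and also with the minimum of 10 adipose reads) and under quantile scaling (0.173).

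Slamf6 (chr1:171917515-171953170, plus strand) encodes Ly108, a receptor that binds itself on neighbouring lymphocytes. It gave 13.1, 7.46 and 5.05 normalized reads in the PLZF+ libraries and 38.5, 53.0 and 18.4 in the PLZF- libraries. The groups do not overlap, and the log2 difference was -1.93 ± 0.37 (adjusted p = 0.0389, 4.28-fold higher mean in PLZF- cells). This call was near the threshold: it held in 7 of the 24 single leave-outs (those of PLZF+ adipose 1, PLZF- adipose 3, PLZF+ lung 1 and 2, PLZF- lung 1, and lymph node 1 of both subsets) and was 0.0521 to 0.257 in the other 17. It was 0.0831 without library 1 of both groups (difference -2.15), 0.609 by voom, 0.556 after quantile scaling and 0.0515 with the replicate block, and it ended with 4 added to normalized reads and without library 2 of both groups.

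Ypel1 (chr16:17069696-17087045, plus strand), a member of the YPEL family of small zinc-binding proteins, had 0 reads in the 3 PLZF+ libraries and 22, 8 and 4 in the PLZF- libraries. The normalized values of 10.3, 9.01 and 5.25 lie close to the limit of detection, and with the floor of 3 reads the PLZF+ mean was at least 1.54-fold lower. The fitted log2 difference was -3.31 ± 0.61 (adjusted p = 0.0389). Among single leave-outs the call held without PLZF+ spleen 1, any of the 3 PLZF+ lung libraries, PLZF- lung 1 or any of the 3 PLZF- lymph node libraries (8 of 24), was 0.0501 to 0.134 in the other 16, and was 0.0718 with the replicate block. It also ended with 1 added to normalized reads (0.229) or 4, after quantile scaling (0.173), and without library 1 (0.293), 2 or 3 of both groups. Its bounds overlap those of Ppil2 on the other strand, as those of Sh2d1a, Cd7 and Slamf6 overlap Tenm1, Gm11775 and Gm37065, and without strand the reads of such pairs cannot be told apart. Among other genes given here, the same limit holds for Cd3e (Gm48719), Cd247 (Pou2f1 among others), Il5 (Gm12214), Ptgdr2 (Ccdc86), Them6 (Slurp1) and Pnpla7 (Gm13369 among others).

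Gm44141 (chr6:47635297-47636879, plus strand) is a gene model of the TEC class, a transcript without an assigned function. It had 5, 6 and 4 reads in PLZF+ libraries against 4, 0 and 0 in PLZF- libraries, or 6.57, 8.96 and 10.1 against 1.88, 0 and 0 normalized reads. The PLZF+ values were all above the PLZF- values, with a log2 difference of 3.33 ± 0.64 (adjusted p = 0.0389), but each rests on 6 reads or fewer. Without PLZF- adipose 1, PLZF+ lung 1 or 2, PLZF- lung 1 or PLZF- lymph node 1 it still passed (5 of 24); in the other 19 leave-outs the adjusted p was 0.0528 to 0.257, and it was 0.0718 with the replicate block. The call was lost with 1 added to normalized reads (0.257) or 4, by voom (0.0587), after quantile scaling (0.535), and without library 2 or 3 of both groups, and it held without library 1 of both (0.0352).

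**Figure D2:**
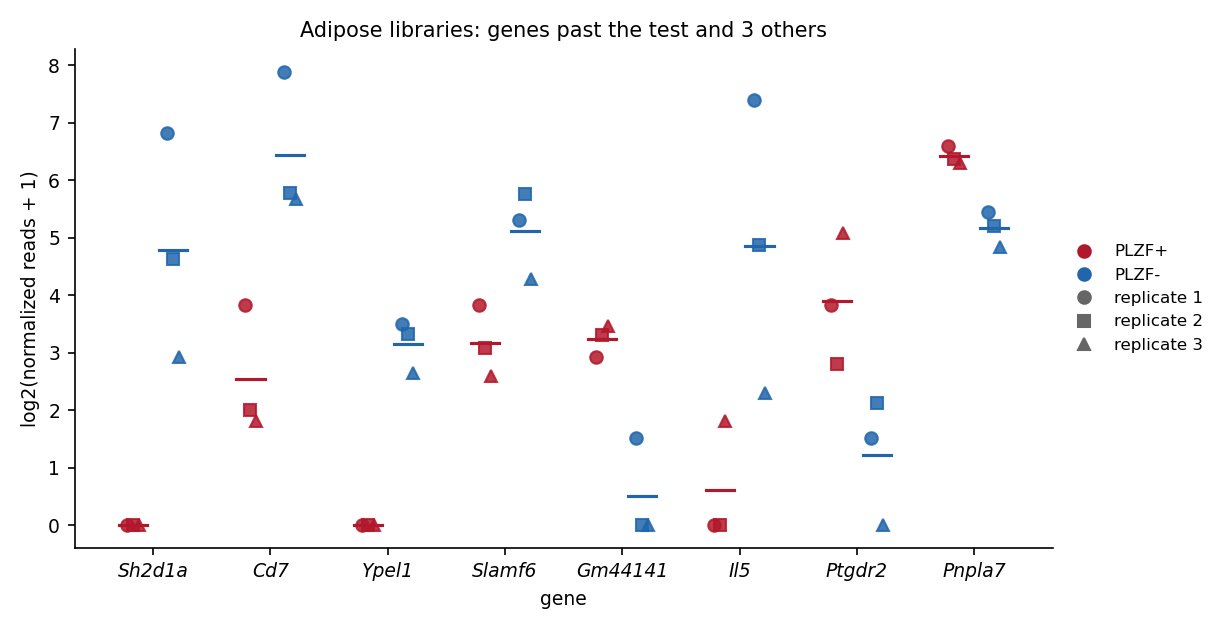
Level of 8 genes in the 6 adipose libraries as log2 of normalized reads plus 1. Colours give the subset, shapes the replicate number and bars the mean of 3 libraries; Sh2d1a and Ypel1 are at 0 in all PLZF+ libraries, and PLZF- library 1 holds the highest value of Sh2d1a, Cd7 and Il5.

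Whether these differences were particular to adipose tissue was tested against the mean of the PLZF differences in lung, spleen and lymph node. No gene of 5007 passed in limma (0.0%), with 202 at an unadjusted p under 0.05 (4.03%), and none passed by voom (239 unadjusted). Cd7 had the smallest p. Its PLZF difference was -0.08 ± 0.66 in lung, -0.16 ± 0.66 in spleen and -0.14 ± 0.66 in lymph node, and the adipose value lay -3.78 ± 0.76 from their mean (unadjusted p = 7.32e-05, adjusted p = 0.366 from limma). PLZF+ cells of spleen held 387 ± 45.7 and of lymph node 275 ± 20.3 normalized reads of Cd7 (mean ± SD, n = 3), against 6.21 ± 6.00 in adipose tissue. With the replicate block 1 gene passed this test.

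Sh2d1a lay in the same direction in the other tissues, with -0.59 ± 0.76 in lung, -1.10 ± 0.76 in spleen and -2.87 ± 0.76 in lymph node, and the adipose difference from their mean did not pass (-3.47 ± 0.87, adjusted p = 0.854). For Slamf6 the lymph node gave the larger difference (-3.41 ± 0.37, adjusted p = 2.14e-05), lung -1.04 ± 0.37 and spleen 0.26 ± 0.37. The other genes with the smallest p of this test were Them6, Acp5, Krtap31-1, Tefm and Sh2d1a. Acp5, a phosphatase known from osteoclasts and macrophages, overlapped between the groups in adipose tissue (116, 113 and 95.9 against 146, 63.1 and 76.1 normalized reads) while its PLZF difference was -0.23 in lung, -1.19 in spleen and -2.22 in lymph node. Them6, Tefm and Krtap31-1 rest on at most 5.97 normalized reads in any adipose library.

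**Figure D3:**
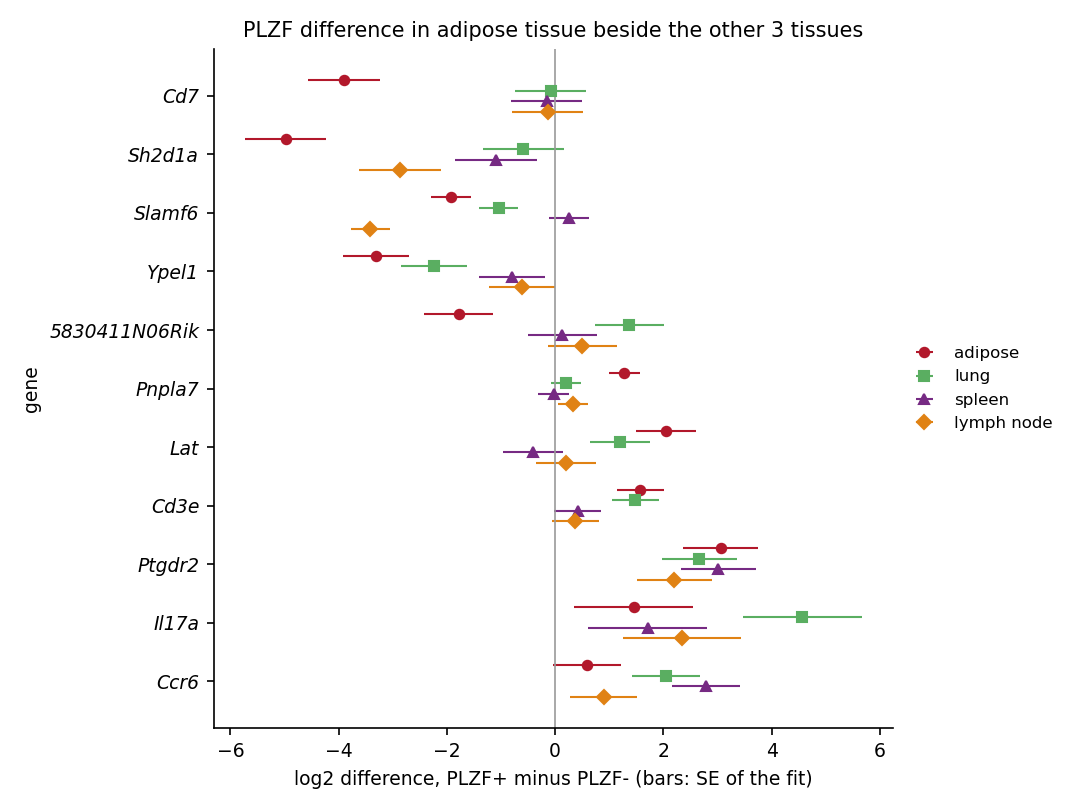
Log2 difference between PLZF+ and PLZF- cells in each tissue for 11 genes, with bars of 1 SE of the fit. Adipose tissue is drawn as circles; for Cd7 it lies at -3.90 while the other 3 tissues lie near 0, and for Ptgdr2 all 4 tissues lie to the right of 0.

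Most CD3 and receptor genes had more normalized reads in PLZF+ libraries, though none of the 7 members tested of 15 in that list passed the test. At an unadjusted p under 0.05, 6 of the 7 were higher and 0 lower, beside 3.14% of all genes, and 4 of the 7 had no overlap between the groups, beside 1.78%. Cd247, the ζ chain that carries the signal inward, gave 613, 436 and 315 normalized reads in the PLZF+ libraries and 289, 118 and 102 in the PLZF- libraries (log2 difference 1.53 ± 0.41, adjusted p = 0.359). Cd3e differed by 1.58 ± 0.43 (adjusted p = 0.359), and its 2.67-fold higher mean came with no overlap between the groups. The largest adipose value among the adaptors was that of Lat, which links the receptor to phospholipase signalling: 386, 313 and 245 against 192, 103 and 21.0 (2.04 ± 0.55, adjusted p = 0.359).

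Cd3g stood at 764, 663 and 404 against 404, 265 and 93.1 normalized reads, with PLZF+ library 3 and PLZF- library 1 at the same level. Cd3d stood at 349, 288 and 169 against 124, 145 and 99.7, with every PLZF+ library above every PLZF- library. Tcrg-C2 and Tcrg-C4 differed by 1.43 and 1.25 on the log2 scale; Tcrg-C2 has near-identical copies in the γ locus, so its reads may be shared among them. Tcrg-V4, a variable segment, gave 52.5, 43.3 and 30.3 against 32.4, 78.9 and 36.7, and the groups overlapped. Summed over the 7 genes, levels were 1524 to 2902 normalized reads in PLZF+ and 479 to 1297 in PLZF- libraries, so the groups did not overlap. In bulk libraries fewer T cells and less T cell RNA per cell cannot be told apart.

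Other genes of receptor signalling lay in both directions. Of the 8 members tested of 18 in the signalling list, none passed, and 1 was higher and 2 lower at an unadjusted p under 0.05, beside 3.14% and 1.64% of all genes. Cd6, a coreceptor that tunes T cell activation, gave 5.25, 0 and 5.05 against 60.1, 16.9 and 11.8 normalized reads (-2.96 ± 0.78, adjusted p = 0.359). Themis, a regulator of receptor signals in developing T cells, gave 10.5, 8.96 and 5.05 against 11.3, 38.3 and 23.6 (-1.33 ± 0.63). For both genes every PLZF- library lay above every PLZF+ library, by a narrow margin for Themis. Plcg1, Skap1 and Ptprc lay within 0.11 of 0 on the log2 scale.

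Reads were also scaled to the summed CD3 genes in place of the library's relative depth, an alternative chosen after seeing the data. The median log2 difference of all tested genes then moved from 0.17 to -1.17. On the CD3 scale 974 genes passed, 6 higher and 968 lower (19.5%). On that scale Sh2d1a (-6.14), Cd7 (-5.32), Slamf6 (-3.33), Ypel1 (-4.46) and Gm44141 (2.58) kept their directions, and each passed. Relative to that median they lay at -4.96, -4.15, -2.16, -3.29 and 3.75. Trbc1 and Acp5 were higher in PLZF+ cells on the deposited scale, without passing, and lower and past the test on the CD3 scale. Dgat1 (0.93 to -0.48) and Hk2 (0.74 to -0.67) also changed sign between the scales, without passing on either. Directions given here for other genes, also where the difference is not small, therefore refer to the deposited scale only.

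**Figure D4:**
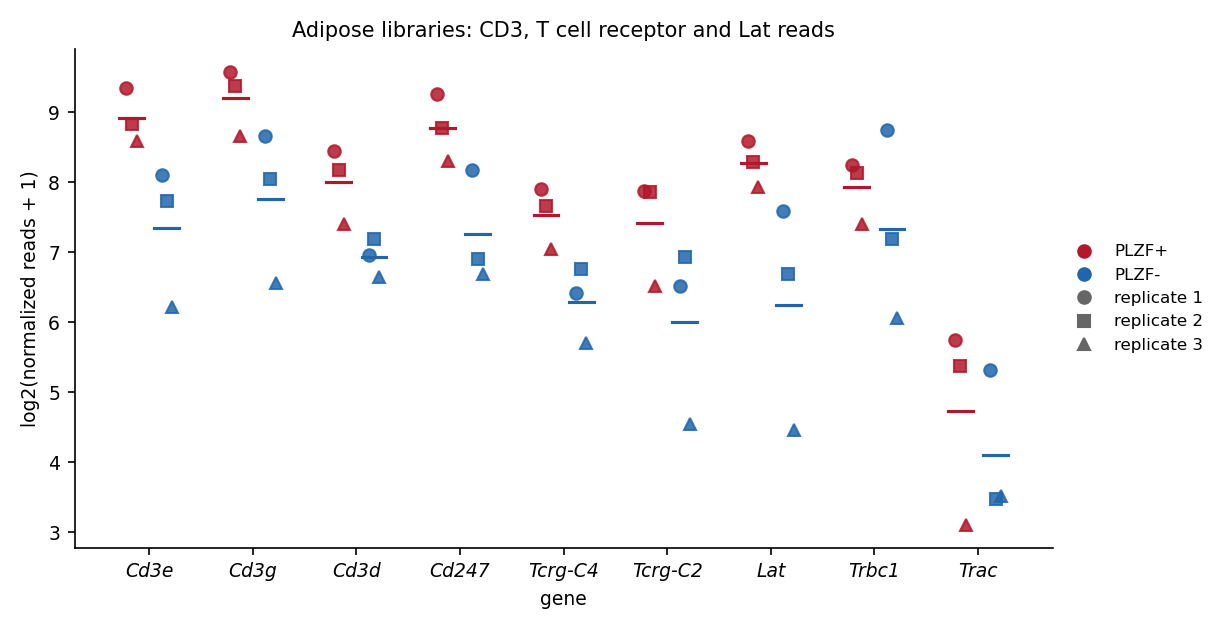
Level of CD3, γ chain, Lat and αβ chain genes in the 6 adipose libraries as log2 of normalized reads plus 1. Colours give the subset, shapes the replicate number and bars the mean of 3 libraries; PLZF- library 3 has the lowest value of Cd3e, Cd3g, Cd3d, Cd247 and Lat.

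In the SLAM family, 2 of 5 members tested fell, Sh2d1a and Slamf6, 0 rose and 3 did not pass. Of all genes tested 0.0799% passed as lower and 0.02% as higher. The list had 10 genes, and with earlier results of these libraries known its direction is no independent evidence. Cd48, a ligand of this family, gave 223, 133 and 119 against 127, 163 and 63.0 normalized reads (0.48 ± 0.53; 0.31 without library 1 of both groups). Ly9, another receptor of the family, gave 44.7, 53.7 and 22.7 against 82.6, 40.6 and 31.5 (-0.30 ± 0.47; -0.01 without library 1). The groups overlapped for both, so the SLAM genes did not move as 1 block.

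Among genes of naive cells and lymphoid homing, 1 of 5 members tested fell, Cd7, 0 rose and 4 did not pass. The shares over all genes tested were 0.0799% lower and 0.02% higher. Ccr9, the receptor that guides lymphocytes to the gut, gave 13.1, 2.99 and 0 against 45.1, 27 and 7.87 normalized reads (-2.45 ± 0.78, adjusted p = 0.665). Dapl1, a gene of resting T cells, was at 0 in the 3 PLZF+ libraries and at 0.939, 2.25 and 0 in the PLZF- libraries, too few reads for a comparison. Tcf7, the transcription factor TCF-1, gave 86.7, 40.3 and 20.2 against 161, 48.5 and 13.1, and Foxp1 gave 148, 97.0 and 88.3 against 281, 115 and 144. The groups overlapped for Tcf7 and Foxp1. All 5 fitted differences were negative, that of Dapl1 with its few reads among them. Their median was -0.62, beside 0.17 over all genes tested and -0.08 over those averaging 10 reads or more. With earlier results of these libraries known, the direction of this list, too, is no independent evidence.

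Of 10 chemokine receptor and integrin genes tested, none passed, and 3 were lower and 0 higher at an unadjusted p under 0.05, beside 1.64% and 3.14% of all genes. Ccr9, already given with the homing genes, is among these 3 and belongs to both lists. Cxcr4, the receptor for CXCL12, gave 38.1, 32.8 and 45.4 against 277, 85.6 and 61.7 normalized reads (-1.54 ± 0.55). Itga4, the α4 integrin chain, gave 105, 67.2 and 47.9 against 405, 121 and 121 (-1.36 ± 0.57). In both the groups did not overlap, and PLZF- library 1 was far the highest; without library 1 of both groups the differences were -0.89 for Cxcr4 and -1.07 for Itga4 (adjusted p = 0.980 each). The median of the list was -1.03.

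IL-17 genes, which mark PLZF+ γδ T cells in other settings, showed no difference past the test in adipose tissue. Il17a, the cytokine itself, gave 142, 55.2 and 25.2 normalized reads in the PLZF+ libraries against 27.7, 42.8 and 7.87 in the PLZF- libraries (1.45 ± 1.10, adjusted p = 0.881). Within each pair of equal number the PLZF+ library was higher, while the groups as a whole overlapped. Il17f gave 31.5, 22.4 and 30.3 against 23.5, 48.5 and 2.62, and Ccr6, the receptor for CCL20, gave 21.0, 20.9 and 10.1 against 16.9, 27 and 2.62; in both, PLZF- library 2 was above every PLZF+ library. Batf and Ahr were the other tested members beside the scavenger receptor gene 5830411N06Rik, and 0 of the 6 passed.

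5830411N06Rik, known as Scart2 and as a marker of IL-17-producing γδ T cells, ran the other way. It gave 112, 56.7 and 106 normalized reads in the PLZF+ libraries against 475, 452 and 130 in the PLZF- libraries (-1.78 ± 0.64, adjusted p = 0.881). Every PLZF- library lay above every PLZF+ library. Its difference was 1.37 ± 0.64 in lung, 0.13 ± 0.64 in spleen and 0.50 ± 0.64 in lymph node, and the adipose value lay -2.45 ± 0.74 from their mean (adjusted p = 0.876), short of the threshold.

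Genes of type 2 responses and tissue repair diverged among themselves, with 0 of 7 past the test. Ptgdr2, a receptor for prostaglandin D2, gave 13.1, 5.97 and 32.8 normalized reads against 1.88, 3.38 and 0 (3.06 ± 0.70, adjusted p = 0.135), with PLZF+ library 3 highest and no overlap. Its difference was of like sign in lung (2.66), spleen (3.02) and lymph node (2.20). Tnfsf11, which encodes the cytokine RANKL, gave 411, 525 and 315 against 109, 195 and 21.0 (2.40 ± 0.84, adjusted p = 0.853), again without overlap.

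Il5, the eosinophil growth factor, gave 0, 0 and 2.52 normalized reads in the PLZF+ libraries against 167, 28.2 and 3.94 in the PLZF- libraries (-4.51 ± 1.08, adjusted p = 0.203). The PLZF+ value of library 3 is 1 read, and PLZF- library 1 holds most of the PLZF- reads. Without PLZF- library 3 the call was reached (-5.82, adjusted p = 0.0284), as it was without library 3 of both groups (-6.63, adjusted p = 0.0223), and without library 1 of both groups it was far from it (-2.77, adjusted p = 0.980). Il1rl1, the IL-33 receptor, gave 64.4, 8.96 and 15.1 against 142, 34.9 and 19.7, and Areg, the growth factor amphiregulin, gave 31.5, 13.4 and 10.1 against 136, 21.4 and 2.62 (-0.31, and 0.58 without library 1 of both groups). PLZF- library 1 was the highest for all of Il5, Il1rl1 and Areg. Il5 and Il1rl1 are also 2 of the 3 tested genes of the list of NK cell and innate lymphoid cell markers, whose sum ran from 32.8 to 146 normalized reads in PLZF+ and from 30.2 to 460 in PLZF- libraries, with Il5 at 0 in PLZF+ libraries 1 and 2. Their part in the Il5, Cd7 and Sh2d1a values was not tested.

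Single markers of other cells lay apart between the subsets. Cx3cr1, of the macrophage and monocyte list, gave 7.88, 2.99 and 10.1 against 36.1, 25.9 and 10.5 normalized reads. S100a8, of the neutrophil list, gave 2.63, 2.99 and 20.2 against 1.88, 0 and 0. Neither passed the test and neither overlapped. In the first list 1 of 15 genes tested did not overlap, with 6 differences positive and 9 negative. In the second it was 1 of 4. Of all genes tested 3.26% lay lower and 1.78% higher without overlap. Cd8b1, the CD8 β chain of αβ T cells, was at 0 in the 3 PLZF+ libraries and at 9.39, 4.51 and 2.62 in the PLZF- libraries (-2.67 ± 0.92). The sum of the 5 αβ marker genes was 315 to 680 normalized reads in PLZF+ and 171 to 862 in PLZF- libraries, so those groups overlapped. Igkc and Ighm, immunoglobulin chains of B cells, had fewer reads in every PLZF+ library without passing, Igkc at 0, 2.99 and 0 against 87.3, 20.3 and 17.1 and Ighm at 42.0, 88.1 and 106 against 416, 140 and 138. PLZF- library 1 was the highest for both, and without library 1 of both groups the difference went from -4.45 to -3.15 for Igkc and from -1.44 to -0.51 for Ighm. Cd79b, a B cell receptor subunit, ran the other way with 32.8, 28.4 and 20.2 against 19.2, 5.63 and 14.4. Cd79a overlapped between the groups, with 3.94, 0 and 5.05 against 0, 0 and 7.87. The 10 B cell genes summed to 94.6 to 167 in PLZF+ and 195 to 533 in PLZF- libraries. The part of such cells in the values of Cd7, Slamf6 and Sh2d1a was not tested.

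The rule for the largest differences also named other genes of several kinds, none past the test. Pnpla7, a lysophospholipase, gave 95.9, 82.1 and 78.2 normalized reads against 42.7, 36.1 and 27.5 (1.28 ± 0.28, adjusted p = 0.122). It passed without PLZF- lymph node 1 (adjusted p = 0.0499). Its libraries spread little within each group, and the pairs gave 1.17, 1.18 and 1.49 on the log2 scale. P2rx7, an ATP-gated channel of tissue-resident T cells, gave 265, 227 and 204 against 89.7, 96.9 and 69.5 (1.45 ± 0.52, adjusted p = 0.881). Nlrc3, a negative regulator of innate signalling, gave 496, 515 and 436 against 384, 197 and 89.2. In all 3 genes every PLZF+ library was above every PLZF- library, a separation that the rule itself requires.

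Lower in PLZF+ libraries were Cd160, Hrh2 and Gpr18. Cd160, a receptor of cytotoxic and intestinal lymphocytes, gave 7.88, 5.97 and 10.1 normalized reads against 125, 38.3 and 23.6 (-2.50 ± 0.65, adjusted p = 0.359; -1.81 without library 1 of both groups). Ctla4 (1.21) and Cd200r1 (0.84), of the same list of inhibitory and costimulatory receptors as Cd160, were higher in PLZF+ cells, with overlapping groups. Hrh2, a histamine receptor, gave 7.88, 2.99 and 0 against 32.4, 16.9 and 13.1 (-2.54 ± 0.68, adjusted p = 0.359). Gpr18, a lipid receptor of intraepithelial lymphocytes, gave 13.1, 14.9 and 2.52 against 78.4, 28.2 and 21.0. No PLZF+ library reached a PLZF- library for Cd160, Hrh2 or Gpr18, which the rule for the largest differences requires. By the same rule Prickle1, Rapsn, Large, Tespa1 and Trp53i13 were higher by 1.37 to 1.89 on the log2 scale, and Oard1, Pglyrp1 and Ifit1 were lower by 1.68 to 1.82; without library 1 of both groups Oard1 stood at -1.07 and Pglyrp1 at -1.10.

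Metabolic genes, which the study's title brings into view, gave no gene past the test. Of 6 glycolysis genes tested, Hk2, the hexokinase of activated lymphocytes, gave 106, 77.6 and 58.0 normalized reads against 43.2, 47.3 and 51.2 (0.74 ± 0.41, adjusted p = 0.881; 0.45 without library 1 of both groups), without overlap. Slc16a3, a lactate exporter, gave 97.2, 91.1 and 65.6 against 103, 24.8 and 36.7, with PLZF- library 1 at the top. Of 15 lipid uptake and storage genes tested, Dgat1, the last enzyme of triglyceride synthesis, gave 935, 563 and 520 against 710, 273 and 205 (0.93 ± 0.47). Dgat2, the other such enzyme, gave 10.5, 41.8 and 53.0 against 75.6, 76.6 and 131 (-1.63 ± 0.76; -1.07 without library 1 of both groups), the opposite direction, with no overlap. Adipocyte markers summed to between 61.5 and 6756 normalized reads in these libraries, and the part of adipocytes in the reads of both enzymes was not tested.

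The medians of the metabolic lists were small on the log2 scale: 0.50 for glycolysis, -0.16 for lipid uptake and storage, -0.34 for the 6 fatty acid and sterol synthesis genes and 0.00 for the 9 nuclear genes of the respiratory chain, beside 0.17 for all genes tested. Cpt1a, which brings fatty acids into mitochondria for oxidation, gave 123, 83.6 and 93.4 normalized reads against 186, 112 and 148 (-0.55 ± 0.35), and the groups overlapped. Within each list the groups overlapped for nearly all members: 1 glycolysis gene, 1 lipid gene and 1 synthesis gene did not overlap, beside 1.78% higher and 3.26% lower of all genes tested.

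Residency genes and genes of activation and handling showed no subset difference past the test. Itgae, the integrin chain that binds E-cadherin, gave 23.6, 13.4 and 15.1 against 35.7, 20.3 and 1.31 normalized reads. Rgs1, a signalling regulator of resident lymphocytes, gave 557, 361 and 439 against 599, 295 and 185. All 31 immediate early and stress genes tested stayed short of the threshold, with 22 negative differences and a median of -0.26, and took 6.21% to 8.01% of PLZF+ and 5.84% to 8.42% of PLZF- reads. Of 8 interferon response genes 2 were lower at an unadjusted p under 0.05, Ifit1 and Mx1, beside 1.64% of all genes, and 0 passed.

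The number of reads set what this comparison could show. Where a gene has no read, its deposited value is set by the depth of the library, and these minimum values were higher in each of the 3 PLZF+ libraries than in any PLZF- library. The 622 tested genes with no adipose read (12.4%) therefore had a log2 difference of 0.94 on the deposited scale and 0 with 1 added to normalized reads. For genes with some reads but a mean under 1 the median difference was 0.42, and it was -0.08 for those averaging 10 reads or more. Groups were compared for overlap on normalized reads, where zeros tie; on that measure 89 genes (1.78%) lay higher and 163 (3.26%) lower in PLZF+ cells without overlap, and of those averaging 10 reads or more 66 (2.39%) and 114 (4.13%).

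**Figure D5:**
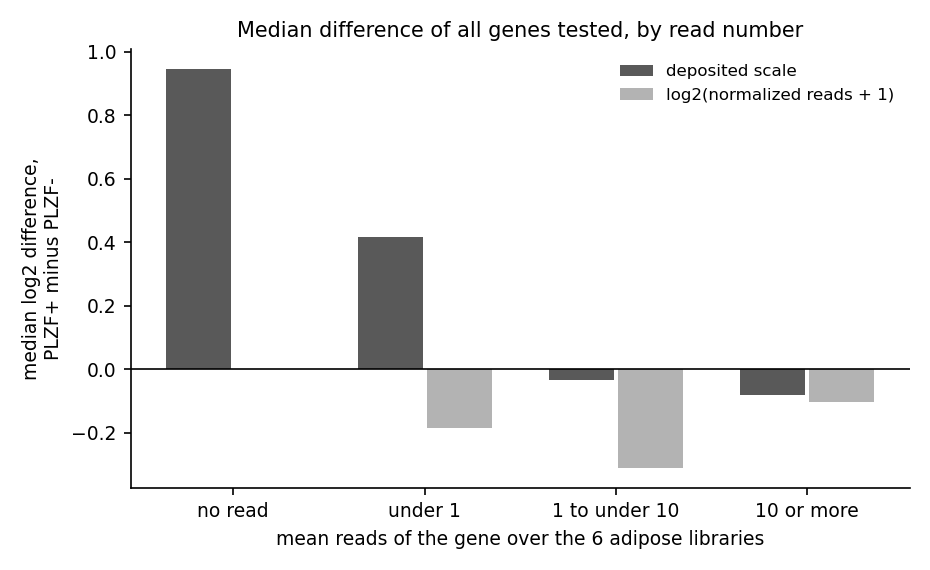
Median log2 difference between PLZF+ and PLZF- adipose libraries for all genes tested, split by the gene's mean reads over the 6 libraries. Dark bars are the deposited scale and light bars log2 of normalized reads plus 1; the dark bar for genes with no read stands at 0.94 and that for genes with at least 10 reads at -0.08.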

How the data were processed

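RNA of sorted γδ T cells was sequenced in 24 libraries, of which the 6 adipose ones are described. The submitters' processing notes name HISAT 0.1.6, SAMtools 1.2, Cufflinks 1.2 and mm10. Per the file headers, values were scaled by TMM; 7926 genes are deposited as log2 values, each with the authors' p-value and q-value. It is limited to genes with q under 0.05 of 42591. A one-way test over the 4 tissues gave back the p-value the authors list for all 7915 genes that are not merged entries (within 0.001 on the log10 scale), so a gene needed a tissue difference to be included. The 11 merged entries were left out.

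The deposited log2 values equal log2 of reads plus 0.5 with a term per library and per gene, and whole reads were recovered for 7915 of 7915 genes (100.0%, within 0.01 read). Values of at least 1 in at least 3 libraries were required (5007 genes). Means of the 8 groups were estimated in limma 3.58.1 under R 4.3.3, all groups sharing 1 spread and without a replicate block, and p-values were adjusted by Benjamini-Hochberg. Figures and tables used python 3.11.15, numpy 2.4.6, pandas 2.3.3 and matplotlib 3.10.9. Tests were checked on simulated data, with libraries drawn independently and changes only in genes with an adipose mean of at least 20 normalized reads. That check does not cover genes near the floor or differences between replicate numbers. Floors cover counting error only. Values after ± are the SE of the fit unless marked as SD, and both measure the spread between these libraries.

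Earlier results of these data were known when members, lists and the naming rule were chosen. Named are genes past the test, the 12 largest increases and decreases at an unadjusted p under 0.05 without overlap and with a mean of at least 20 normalized reads, a panel of 35 genes (21 in the table; the other 14, Zbtb16 and Ifng among them, were not analysed here), up to 4 genes of each of 29 lists and the 6 smallest p of the difference between tissues. Plcg1, Skap1, Ptprc and a few marker genes are given beside them as list members.

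Equal replicate numbers were taken to pair adipose libraries: deviations from group means correlated by 0.662, 0.179 and 0.572 within pairs. No label states the pairing, and library 2 correlated more with number 3 of the other subset (0.299 and 0.292). No adipose library repeats another (chi-square of 6.04 to 179 per gene between any 2). Alternatives were other offsets, voom, other filters and scalings, library weights, blocks, adipose libraries alone and left-out libraries; the value minimum of 0, scaling to CD3 genes and the 3 combinations with the read filter were chosen after seeing the data.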

Additional observations from a re-analysis of the deposited data

How the results depend on the processing

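Where 5 genes passed in adipose tissue, 5 passed with 1 added to normalized reads (3 of them among the 5), 3 with 4 added (1 of them among the 5), 2 by voom, 1 after quantile scaling, 3 with a minimum mean of 10 adipose reads, and 3, 0 and 3 when that minimum was joined with 1 added to reads, with voom (158 at an unadjusted p under 0.05) or with the replicate block within tissue. Library weights gave 51 (33 higher and 18 lower, 1.02%), and CD3 scaling gave 974. With the replicate block within tissue 2 genes passed, Cd7 and Sh2d1a. In the 6 adipose libraries alone limma called 0 (109 at an unadjusted p under 0.05), and 0 with the replicate block (419). Leaving out libraries gave 1 to 11 genes: 11 without PLZF- adipose 1 (9 higher, 2 lower) and 1 without PLZF+ adipose 3. The count stayed at 4 to 6 only without PLZF- adipose 3, PLZF+ lung 1 or 2, PLZF- lung 1 or PLZF- lymph node 1.

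For the adipose difference against the other tissues the 0 genes became 1 with 4 added, 14 with library weights, 1 with the replicate block (also with the read minimum), 2 with CD3 scaling and 0 to 2 with libraries left out. The cause was not tested.

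Acp5 (-1.12) and Trbc1 (-0.80) turned from higher to lower and passed under CD3 scaling. Cd247 (1.99) and Lat (2.72) passed without PLZF- adipose 1, at an adjusted p of 0.0474 each in limma, as did Them6 (3.37). Them6 also passed without replicate 1 of both groups (3.42), and Pnpla7 without PLZF- lymph node 1 (1.28, adjusted p = 0.0499). Low read numbers limit Gm44141, Ypel1 and Il5 in particular, and the 622 genes with no adipose read cannot show a difference here.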
